A study of Mus musculus with 12 samples.

Results

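Aminoacyl-tRNA synthetases were examined in the left ventricle of mice that lack GTP cyclohydrolase 1 in cardiomyocytes. The members were the 36 genes of this enzyme family chosen by symbol, 20 for cytosolic enzymes and 16 for mitochondrial ones, out of 26921 gene identifiers in the deposited table of raw counts. All 36 passed the filter on low counts, as did 11225 genes of the whole table, and the lowest count of any member in any library was 113, for Pars2. Libraries were made from total RNA of 6 WT and 6 cmGch1 KO mice aged 16 weeks. Both groups carried 2 floxed alleles of Gch1, and the cmGch1 KO mice also carried 1 copy of a Cre transgene driven in cardiomyocytes by the α-MHC promoter; the WT mice were littermates without Cre. Mice of both sexes were used in the study, and the labels give no sex. A line with Cre and unfloxed Gch1 was not analysed here, so the deletion and the presence of Cre cannot be told apart in these groups. In bulk tissue, fewer cells of a type and less RNA per cell cannot be told apart either.

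Each aminoacyl-tRNA synthetase joins an amino acid to its tRNA, the step that fixes which amino acid a codon is read as. Animals keep separate nuclear genes for most of the cytosolic and the mitochondrial enzymes; the mitochondrial ones charge the tRNAs used for the respiratory chain subunits encoded by mitochondrial DNA, of which the heart needs a large supply. Several cytosolic synthetases sit together in a multisynthetase complex held by scaffold proteins. Many genes of the cytosolic enzymes are targets of ATF4, the transcription factor of the integrated stress response, which also activates amino acid transporters and the enzymes of serine and asparagine synthesis, and which binds a composite C/EBP-ATF response element. Gars and Kars, for glycine and lysine, each supply both compartments from a single gene, and mitochondria lack a glutaminyl-tRNA synthetase: there glutamate is first attached to the tRNA by Ears2 and then converted by an amidotransferase.

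Promoters are shown first, because they separate a few cytosolic members from the rest by sequence alone. RefSeq promoters on GRCm38.p6, each the 250 bases before and 50 bases after a transcription start, were found for 13 of the 20 cytosolic and 14 of the 16 mitochondrial members. They were searched on both strands for the core of the C/EBP-ATF element, TGATGNAA, which reads TTNCATCA on the other strand, where N is any base. The core was present in 5 of the 13 cytosolic promoters (38.5%) and in 0 of the 14 mitochondrial members, against 1304 of all 32851 promoters in the table (3.97%) and 237 of the 8647 tested genes with an entry (2.74%). All 5 were among the 8 promoters of cytosolic members listed here as known ATF4 targets, while 0 of the other 5 cytosolic promoters held it. That list came from general knowledge of ATF4 targets and may not be independent of this element, so the split is no test. The windows below are 30 bases each, read along the gene's strand, with the core in capitals. They are shown for the place of the core in each promoter, since the core itself was the search term.
Gars, chr6:55037960-55037989, + strand, 30 bases before the start: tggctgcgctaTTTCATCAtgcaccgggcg
Tars, chr15:11399655-11399684, - strand, 15 bases before the start: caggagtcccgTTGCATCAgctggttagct
Aars, chr8:111033840-111033869, + strand, 9 bases after the start: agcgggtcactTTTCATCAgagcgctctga
Iars, chr13:49682126-49682155, + strand, 7 bases after the start: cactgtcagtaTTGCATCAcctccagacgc
Yars, chr4:129189895-129189924, + strand, 3 bases after the start: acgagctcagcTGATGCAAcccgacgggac
In 4 of these 5 windows the core lay in the TTNCATCA orientation, and Yars had the other. The GENCODE M21 genes of Aars, Iars, Tars and Yars begin upstream of the RefSeq starts used here, and that of Gars begins downstream. Cars, Hars, Lars, Nars, Rars, Vars, Wars, Hars2 and Pars2 had no entry. A match is a description of the letters in this window.

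The Gars promoter is given at greater length as the one whose gene had the largest difference among the members. Its 250 bases before the start, chr6:55037751-55038000 on the + strand, read:
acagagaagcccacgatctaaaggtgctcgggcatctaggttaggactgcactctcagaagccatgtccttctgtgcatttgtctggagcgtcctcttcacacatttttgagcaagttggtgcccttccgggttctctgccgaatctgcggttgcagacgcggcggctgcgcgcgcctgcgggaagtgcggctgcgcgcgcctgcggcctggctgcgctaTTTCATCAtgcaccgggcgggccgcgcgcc

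Before genotypes were compared, depth and labels were checked. Libraries held 19921398 to 37917806 counts. Gch1 was 10.7 ± 0.974 cpm in WT and 5.48 ± 0.855 in cmGch1 KO (mean ± SD, n = 6 each; cpm is the count per library depth, scaled by TMM), a log2 fold change of -0.96 (edgeR quasi-likelihood test, adjusted p = 6.88e-04), without overlap between the genotypes. cmGch1 KO replicates 2 and 3 stood apart, with 86.7 and 99.1 cpm of Xist and 0 counts from Y-linked genes. The other 10 libraries, among them all 6 WT, had at most 0.234 cpm of Xist and 167 to 192 cpm from Y-linked genes. This sex-linked pattern was thus unbalanced between the genotypes, since only cmGch1 KO held libraries with high Xist. In replicates 2 and 3 of cmGch1 KO, mitochondrial genes took 14.9% and 16.1% of the counts, against 18.3% to 22.9% elsewhere.

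The comparison asked whether loss of Gch1 in cardiomyocytes went with a difference in the mRNA of charging enzymes, and whether the cytosolic and the mitochondrial sets differed in the same way. Log2 fold changes are of cmGch1 KO over WT. No member passed an FDR of 0.05 with edgeR, whereas 126 of 11225 tested genes did (1.12%); the lowest adjusted p of a member was 0.158, for Gars, and DESeq2 called 1 member, again Gars (adjusted p = 0.0360). With edgeR, an unadjusted p under 0.05 was reached by 6 of 36 members. Each of these 6 was cytosolic with a positive fold change, so 6 of 20 cytosolic members compare with 7.01% of all tested genes that were higher at that threshold. No mitochondrial member reached it in either direction with edgeR, and 1 did with DESeq2; the share of all tested genes that were lower at that threshold was 4.51%.

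The sets leaned in opposite directions by small amounts. Of the 20 cytosolic members, 18 had a positive log2 fold change (46.7% of all tested genes did), the median was 0.12, and values ran from -0.02 for Farsa to 0.22 for Gars, which as a fold is 0.988 to 1.16. Of the 16 mitochondrial members, 12 had a negative value, the median was -0.11, and values ran from -0.22 for Fars2 to 0.15 for Lars2. The median of all tested genes was -0.01. These counts and medians describe the lists; they are not tests, and members share the same 12 libraries. With both high-Xist libraries left out, 18 of 20 cytosolic members were still positive with a median of 0.11, and 14 of 16 mitochondrial members were negative with a median of -0.10, while 3 cytosolic members had an unadjusted p under 0.05: Cars, Gars and Wars.

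**Figure D1:**
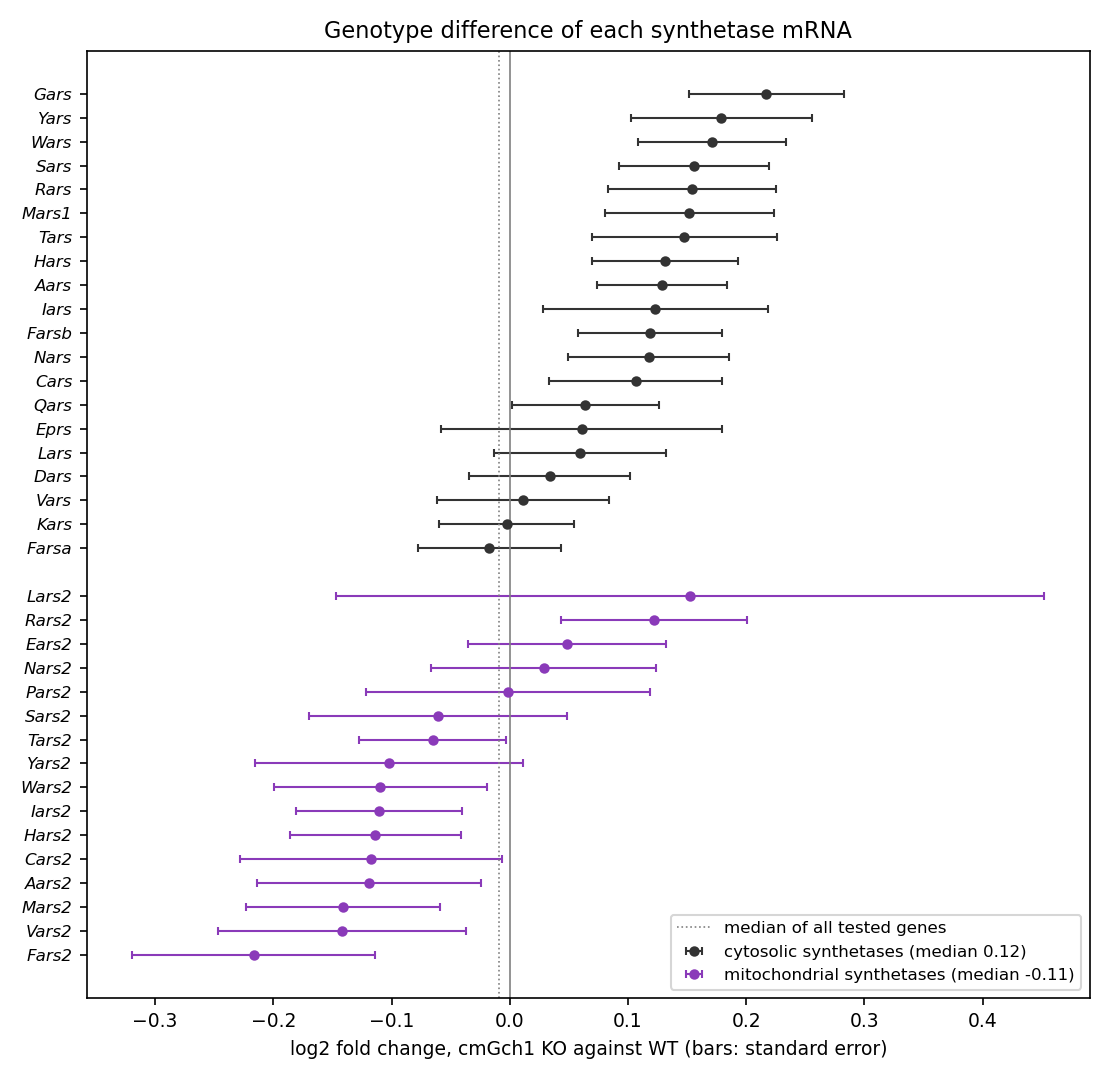
Log2 fold change of each synthetase mRNA (x axis, cmGch1 KO over WT, n = 6 each, bars are standard errors from edgeR), with cytosolic enzymes above and mitochondrial ones below. Of the cytosolic points, 18 of 20 lie right of 0 around a median of 0.12, and 12 of 16 mitochondrial points lie left of it around -0.11; the widest bar is that of Lars2.

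Gars, the glycyl-tRNA synthetase of both compartments, had the largest difference. The gene (ENSMUSG00000029777) spans chr6:55038007-55079500 on GRCm38. Its levels in WT were 57.2 cpm at the lowest, 61.3 at the median and 65.6 at the highest, and in cmGch1 KO 62.2, 72.0 and 76.3. Of the cmGch1 KO libraries, 5 lay above the highest WT library and replicate 6 lay within the WT range. The log2 fold change was 0.22 ± 0.07 (SE), or 16.2% more, with an adjusted p of 0.158 by edgeR and an exact two-sided permutation p of 0.00866 for this gene alone. The highest values were in replicates 2 and 3, the high-Xist libraries, at 74.8 and 76.3 cpm. Without both, the log2 fold change was 0.166 (adjusted p = 0.667, edgeR). With sex-linked expression as a covariate it was 0.171 (adjusted p = 0.533, edgeR).

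Wars charges tryptophan and is known for its induction by interferon. It ran from 45.1 through a median of 47.5 to 51.3 cpm in WT, and from 49.0 through 53.4 to 58.7 in cmGch1 KO. Replicate 3 was the only cmGch1 KO library inside the WT range. This gave a log2 fold change of 0.17 ± 0.06 (adjusted p = 0.265, edgeR).

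Yars, for tyrosine, ran from 29.2 through 30.5 to 34.0 cpm in WT and from 29.8 through 34.9 to 41.1 in cmGch1 KO. Replicate 1 lay within the WT range and replicate 2, one of the high-Xist libraries, was the highest. On the log2 scale the difference was 0.18 ± 0.08 (adjusted p = 0.369, edgeR), and 0.11 without both high-Xist libraries.

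Sars, for serine, ran from 69.4 through 74.6 to 82.0 cpm in WT and from 77.1 through 84.6 to 89.6 in cmGch1 KO. Replicates 5 and 6 of cmGch1 KO overlapped the upper WT libraries. This gave a log2 fold change of 0.16 ± 0.06 (adjusted p = 0.334, edgeR).

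Rars, for arginine and part of the multisynthetase complex, ran from 38.2 through 40.2 to 42.1 cpm in WT and from 40.2 through 44.4 to 52.2 in cmGch1 KO. The highest values were again in replicates 2 and 3, and replicates 1 and 5 lay within the WT range. On the log2 scale the difference was 0.15 ± 0.07 (adjusted p = 0.428, edgeR), and 0.07 without the high-Xist libraries.

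Aars, for alanine, ran from 68.0 through 72.0 to 75.4 cpm in WT and from 71.3 through 79.1 to 81.7 in cmGch1 KO. All cmGch1 KO libraries but replicate 1 exceeded the highest WT library. Its log2 fold change was 0.13 ± 0.06 (adjusted p = 0.372, edgeR). For 0 of 36 members did the 6 cmGch1 KO libraries all lie above the 6 WT libraries, against 1.07% of all tested genes.

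**Figure D2:**
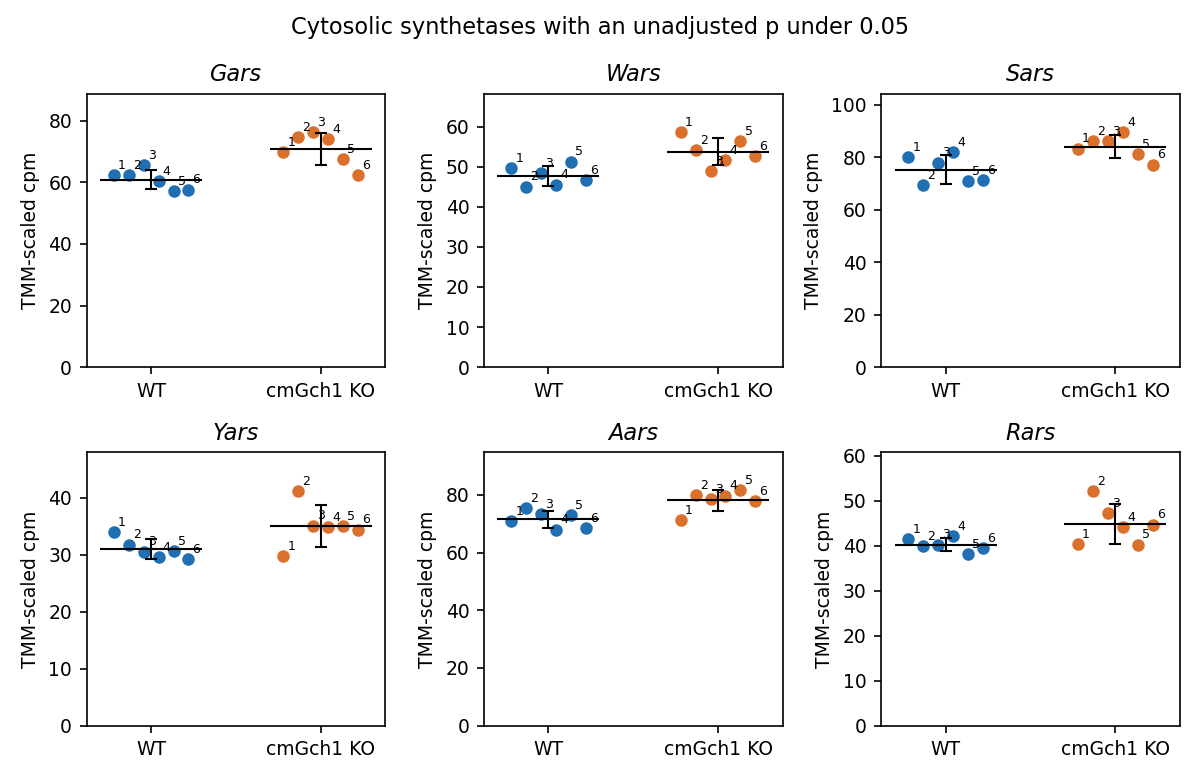
TMM-scaled cpm of the 6 cytosolic synthetases with an unadjusted p under 0.05, by genotype; each point is 1 library with its replicate number, lines are means and bars SD (n = 6). In each panel the cmGch1 KO mean is higher and 1 or 2 cmGch1 KO libraries lie within the WT range; cmGch1 KO replicate 1 lies within the WT range for Yars, Aars and Rars.

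The other 14 cytosolic members had log2 fold changes from -0.02 to 0.15. Mars1, which also charges the initiator tRNA with methionine, was 45.2 ± 3.06 cpm in WT and 50.2 ± 4.17 in cmGch1 KO (log2 fold change 0.15 ± 0.07). Tars, for threonine, was 0.15 ± 0.08 on the log2 scale of differences and Hars, for histidine, 0.13 ± 0.06. Iars, Nars, Farsb and Cars, for isoleucine, asparagine, the beta subunit for phenylalanine and cysteine, lay between 0.11 and 0.12. Qars, Lars, Eprs and Dars, for glutamine, leucine, glutamate with proline and aspartate, lay between 0.03 and 0.06, and Vars, for valine, was 0.01. Kars, for lysine, had means of 119 ± 5.56 cpm in WT and 119 ± 6.26 in cmGch1 KO, a log2 fold change of -0.00 ± 0.06. The 2 subunits of phenylalanyl-tRNA synthetase, Farsa and Farsb, which join in a single enzyme, had values of -0.02 ± 0.06 and 0.12 ± 0.06. Their levels per length also differed, at 10.9 and 31.5 TPM.

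Among the 13 cytosolic members that general knowledge lists as ATF4 targets, 13 had positive log2 fold changes with a median of 0.13, and 5 had an unadjusted p under 0.05. Among the 7 others, 5 were positive with a median of 0.06, and 1 had such a p (Rars). Over all tested genes, 46.7% were positive and 7.01% were higher at that p. The 8 enzymes of the multisynthetase complex had a median of 0.06 with 7 positive values, and the 12 enzymes outside it a median of 0.13 with 11 positive values. The listings overlap, since Eprs, Iars, Lars and Mars1 are both complex members and ATF4 targets, and the differences between these medians were not tested. The scaffold proteins of the complex had values close to 0: Aimp1 -0.02, Aimp2 -0.06 and Eef1e1 0.05, with 0 called by edgeR (adjusted p of 0.937 to 0.977), 0 called by DESeq2 and 0 at an unadjusted p under 0.05.

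Fars2, the mitochondrial phenylalanine enzyme, had the lowest value of the family. The gene (ENSMUSG00000021420) spans chr13:36117412-36726280. It ran from 49.6 through 57.5 to 71.8 cpm in WT and from 47.1 through 48.1 to 64.7 in cmGch1 KO. Of the cmGch1 KO libraries, 5 lay between 47.1 and 48.4, below every WT library, and replicate 1 lay well above them. The log2 fold change was -0.22 ± 0.10 (adjusted p = 0.450, edgeR), with an exact two-sided permutation p of 0.0887.

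The other mitochondrial members with negative values spread from -0.14 to -0.00. Vars2 and Mars2, for valine and methionine, were each -0.14. Aars2 and Cars2, for alanine and cysteine, were each -0.12. Hars2, Iars2 and Wars2, for histidine, isoleucine and tryptophan, were each -0.11, and Yars2, for tyrosine, was -0.10. Tars2 was -0.07 and Sars2 -0.06, for threonine and serine. Pars2, the proline enzyme and the member with the fewest counts, was -0.00 ± 0.12. Positive values other than that of Lars2 were 0.12 for Rars2, 0.05 for Ears2 and 0.03 for Nars2, the enzymes for arginine, glutamate and asparagine. The lowest adjusted p among all 16 was the 0.450 of Fars2 (edgeR).

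Lars2, the mitochondrial leucyl-tRNA synthetase, differed between libraries more than any other member. The gene (ENSMUSG00000035202) spans chr9:123366927-123462666. Its level was 401 cpm at the lowest, 584 at the median and 1006 at the highest in WT, and 365, 652 and 1052 in cmGch1 KO. High values were those of WT replicate 1 (1006 cpm) and cmGch1 KO replicates 1, 2 and 3 (1052, 975 and 900 cpm); the other 8 libraries held 365 to 601 cpm. The same 4 libraries were also the highest for Gm42418, a gene known to overlap a copy of ribosomal RNA and named here after its values were seen, at 14237 to 16804 cpm against 7041 to 10805 in the other 8. The log2 fold change of Lars2 was 0.15 ± 0.30 (adjusted p = 0.924, edgeR). Without those 4 libraries it was -0.47, but they were chosen for their high Lars2 after it was seen, and 3 of the 4 were cmGch1 KO, so that value is no measure of the genotype. The level of Lars2 is given as uncertain, and the part of ribosomal RNA in it was not tested.

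**Figure D3:**
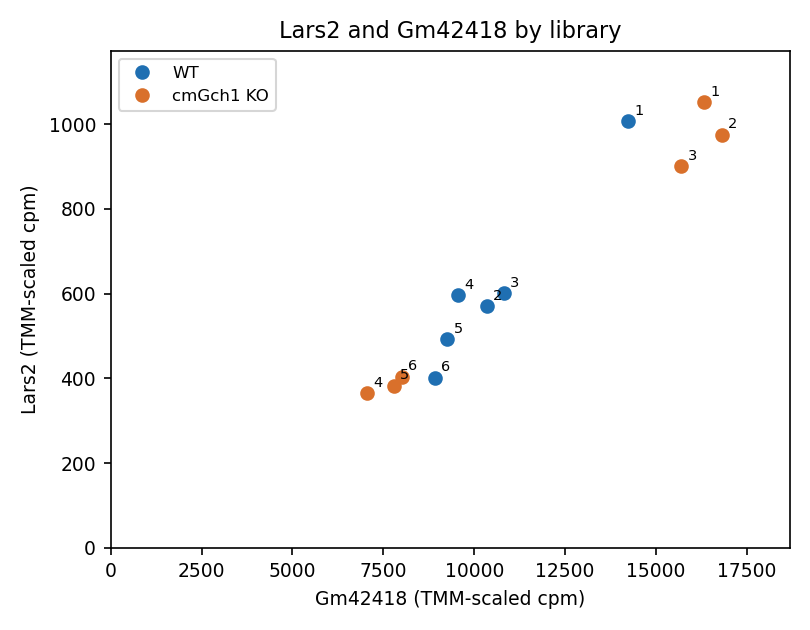
Lars2 against Gm42418, both in TMM-scaled cpm, with 1 point per library, its replicate number and its genotype by colour. WT replicate 1 and cmGch1 KO replicates 1 to 3 form a separate cluster at 900 cpm of Lars2 or more, and the other 8 libraries lie at 601 cpm or less.

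Both enzymes were measured for 13 amino acids. In 12 of these 13 pairs the cytosolic gene had the higher log2 fold change, leucine being the exception, with 0.06 for Lars and 0.15 for Lars2. The count uses the same fold changes as the medians of both lists, so it is no separate evidence. The gap was largest for methionine, with 0.15 for Mars1 and -0.14 for Mars2, and next for tyrosine and tryptophan. Per library, the log2 ratio of Wars to Wars2 was 2.36 to 2.65 in WT, whereas cmGch1 KO libraries had 2.68 to 3.002. It was the 1 ratio of 13 whose groups did not overlap, and only narrowly. The groups of Wars and of Wars2 each overlapped. Among single genes, 1.07% of all tested genes had every cmGch1 KO library above every WT library. No such share was computed for ratios of other gene pairs, so this count has no background to set it against. For asparagine and arginine both enzymes had positive values and the gap was small, at 0.09 and 0.03.

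As a summary per library, the log2 cpm of each member was centred on its mean over the 12 libraries and averaged over the list. For the cytosolic list this ran from -0.07 to -0.04 in WT, and in cmGch1 KO it was -0.04 in replicate 1 and 0.03 to 0.15 in the other 5. For the mitochondrial list without Lars2 WT libraries lay at -0.05 to 0.12 and cmGch1 KO libraries at -0.15 to 0.03. The cytosolic values thus overlapped in 1 cmGch1 KO library and the mitochondrial values in several. On levels per length, the ratio of the summed cytosolic TPM to the summed mitochondrial TPM without Lars2 was 2.75 to 3.11 in WT (2.91 ± 0.128) and 3.12 to 3.47 in cmGch1 KO (3.34 ± 0.126). These ranges did not overlap, but only narrowly: WT replicate 6 had 3.11 and cmGch1 KO replicate 1 had 3.12. Lars2 was left out after its values were seen, so the ratio carries no test; with Lars2 it was 1.33 to 2.09 in WT and 1.41 to 2.40 in cmGch1 KO. The summed mitochondrial TPM without Lars2 had a mean of 174 in both genotypes (SD 5.43 in WT and 12.3 in cmGch1 KO). The summed cytosolic TPM was 506 ± 18.0 in WT and 582 ± 53.4 in cmGch1 KO. TPM was scaled to each library's own total and not by TMM, so the size of either sum is not comparable with the fold changes. On the TMM scale, 12 of these 15 mitochondrial members had negative log2 fold changes, with a median of -0.11.

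**Figure D4:**
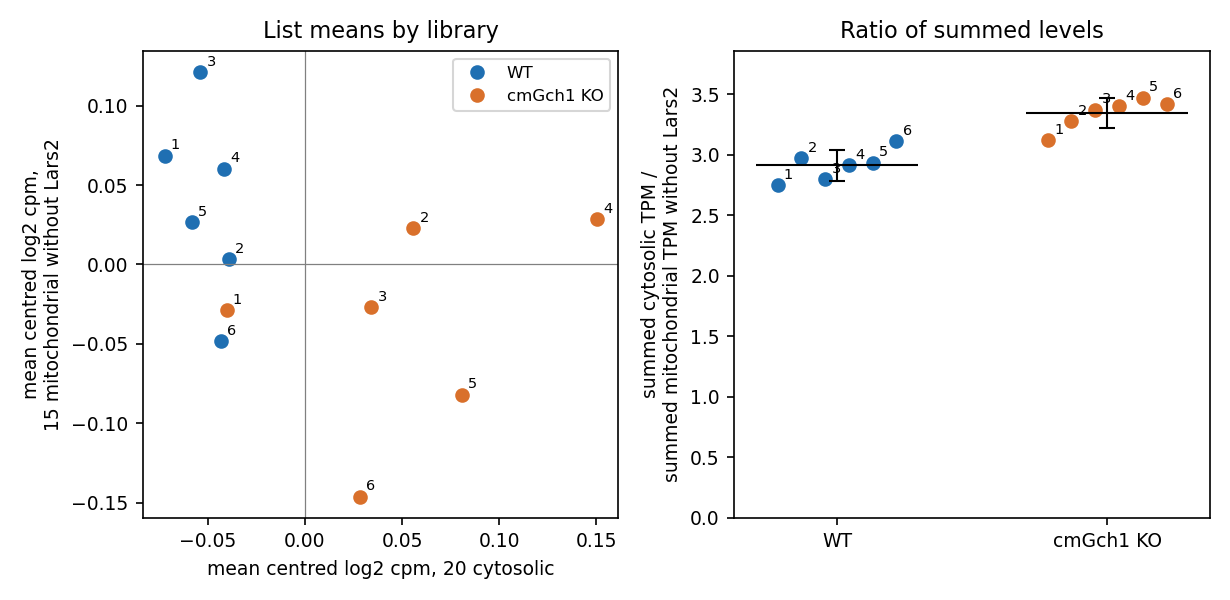
Left, mean centred log2 cpm of the 20 cytosolic members (x axis) and of the 15 mitochondrial members without Lars2 (y axis), 1 point per library. Right, ratio of summed cytosolic to summed mitochondrial TPM without Lars2 by genotype, with mean and SD (n = 6); WT lies at 2.75 to 3.11 and cmGch1 KO at 3.12 to 3.47.

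Levels per length, in TPM averaged over the 12 libraries, differed more among the enzymes than any enzyme did between genotypes. The length was that of all annotated exons of a gene joined, from 2447 bases for Hars to 18102 for Eprs. It is not the length of the transcript expressed in the heart, so the order of enzymes depends on the annotation. The cytosolic order was led by Kars (59.5 TPM), Nars (52.5), Gars (47.3) and Dars (39.5), and the ranges of Kars and Nars over libraries, 53.7 to 66.5 and 42.0 to 63.6, overlapped. Cars was the lowest at 5.95 TPM, with a range of 5.10 to 7.08. In counts, Kars ran from 110 through 119 to 125 cpm in WT and from 109 through 120 to 127 in cmGch1 KO, and Cars from 15.9 through 17.0 to 18.1 and from 15.7 through 18.0 to 20.3; neither gene's groups separated. The mitochondrial order was led by Lars2 (129 ± 51.6 TPM, uncertain as above), then Iars2 (28.5), Fars2 (21.1) and Yars2 (18.6), with Wars2 the lowest at 3.03. Wars2 ran from 7.48 through 8.37 to 9.40 cpm in WT and from 6.75 through 7.87 to 8.45 in cmGch1 KO, with the groups overlapping. Of the 13 pairs, the cytosolic enzyme had the higher TPM in all but those for cysteine, isoleucine, leucine, threonine and tyrosine. For asparagine it was 11.6 times as high and for tryptophan 10.9 times. The tyrosine pair turned on the exon lengths: Yars had 0.676 times the TPM of Yars2, but more cpm in WT (mean log2 ratio 0.19).

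**Figure D5:**
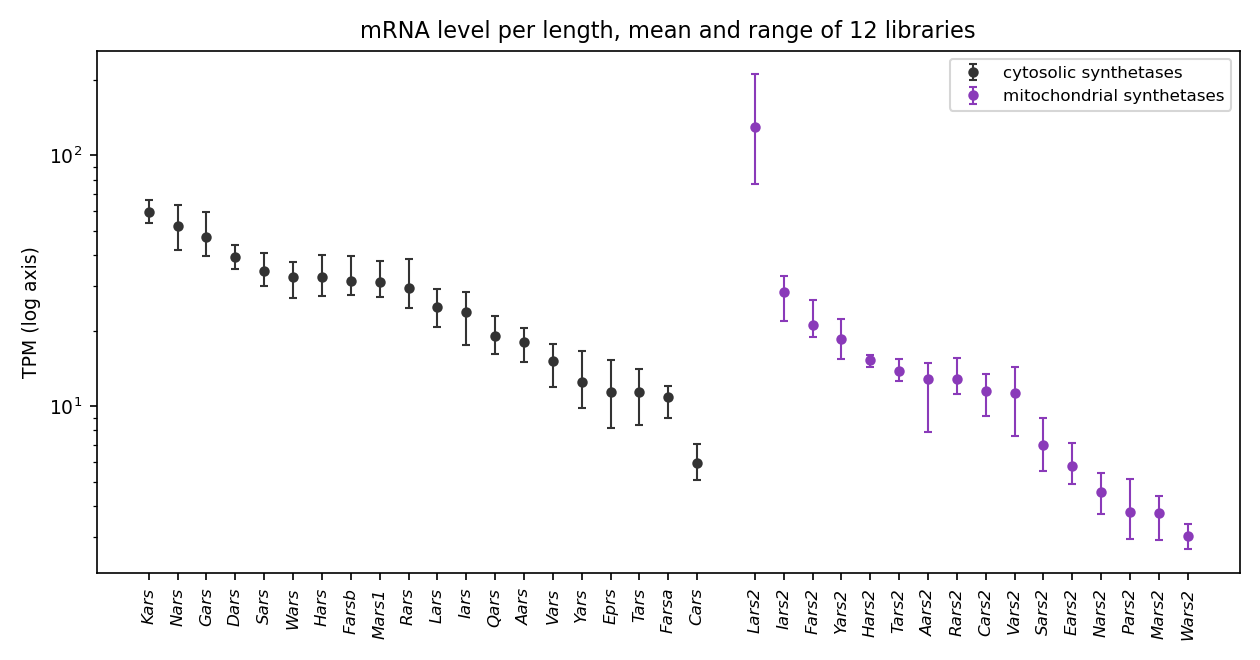
mRNA level per length of each synthetase in TPM on a log axis, as the mean (point) and the range (bar) over all 12 libraries, ordered within cytosolic and mitochondrial enzymes. Kars leads the cytosolic and Lars2 the mitochondrial order; the bar of Lars2 is the widest, at 76.9 to 210 TPM.

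Several members lie over other genes, so that reads could be shared where counting ignored strand; the strand setting is not given in the sources used here. Hars and Hars2 run head to head and overlap on opposite strands. Mars1 overlaps Ddit3, another gene of the stress response, whose mean count was 35.9% of that of Mars1, and Ddit3 itself had a log2 fold change of 0.02. Wars overlaps Wdr25 (9.48% of its count), Yars overlaps C77080 (15.6%), Fars2 overlaps Nrn1 and Lyrm4 (25.1% and 19.5%), Iars2 overlaps Rab3gap2 (19.9%) and Cars2 overlaps Naxd (86.9%), each on the opposite strand. Ears2 overlaps Ubfd1, which had 332% of its count, also on the opposite strand. Aars overlaps Exosc6 on the same strand, where a strand setting cannot separate reads, and Exosc6 has no value in the table used here. These shares compare whole genes, and the number of reads shared was not measured.

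Genes next to the synthetases in the pathway were taken from lists. Of 7 tested genes for proofreading, related enzymes and tRNA export, 1 had an unadjusted p under 0.05. It was Xpot, the exportin that carries tRNA out of the nucleus and an ATF4 target in other systems, at 40.8 to 44.6 cpm in WT and 45.3 to 52.1 in cmGch1 KO. Its groups did not overlap, and its log2 fold change was 0.20 ± 0.06 (adjusted p = 0.147, edgeR). Every cmGch1 KO library lay above every WT library for 1.07% of all tested genes. At an unadjusted p under 0.05, 7.01% of all tested genes were higher and 4.51% lower. The 6 cytosolic elongation factors, which deliver charged tRNA to the ribosome or move it along, had a median of 0.02 with 0 past that p. Of 11 mitochondrial partners of charged tRNA, 8 had negative values with a median of -0.06. Among them Gfm2, a factor for recycling mitochondrial ribosomes, had a log2 fold change of -0.14 ± 0.06 (adjusted p = 0.331, edgeR). The 12 tested genes for mitochondrial tRNA processing and modification had a median of -0.04 with 8 negative values. They held 0 with an unadjusted p under 0.05. No gene of these 4 lists was called by edgeR, and DESeq2 called 1, Xpot.

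The eIF2 kinases set the integrated stress response in motion, and GCN2, encoded by Eif2ak4, senses uncharged tRNA. Eif2ak4 was 7.75 ± 0.744 cpm in WT and 8.19 ± 0.676 in cmGch1 KO (log2 fold change 0.08). Of the 5 tested genes of this list, Eif2ak2, the kinase PKR, had an unadjusted p under 0.05 (log2 fold change 0.29 ± 0.12, adjusted p = 0.326, edgeR), and 0 were called by edgeR or DESeq2. Over all tested genes, 7.01% were higher at that unadjusted p. Atf4 mRNA was 72.6 ± 10.7 cpm in WT and 71.9 ± 5.86 in cmGch1 KO, a log2 fold change of -0.01; the protein, which is controlled at translation, was not measured here.

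Among ATF4 and its targets other than synthetases, a few genes differed strongly and others hardly at all. Of 28 tested, 18 were positive (46.7% of all tested genes were) and 10 negative, the median was 0.05, and edgeR called 4 higher and 1 lower (1.12% of all tested genes were called in either direction). The other 8 of the 36 on the list did not pass the filter on low counts. Gdf15, a stress hormone, rose from 1.87 ± 0.673 to 7.12 ± 2.20 cpm (log2 fold change 1.94, adjusted p = 0.00149), but it passed the filter through the cmGch1 KO libraries alone, as no WT library was over 2.67 cpm. Mthfd2, a mitochondrial folate enzyme, rose from 3.57 ± 0.637 to 12.9 ± 3.51 cpm (1.85, adjusted p = 6.39e-04). Slc7a5, which imports large neutral amino acids, rose by 0.78 and Atf5, a related factor, by 0.50 on the log2 scale, with adjusted p of 0.0117 and 0.0438. Gpt2, the mitochondrial alanine aminotransferase, fell by 0.37 on the log2 scale (adjusted p = 0.0114). Psat1, of serine synthesis, Aldh18a1, of proline synthesis, Sesn2, a stress-induced inhibitor of mTORC1, and Chac1, which breaks down glutathione, had positive values of 0.59, 0.33, 0.41 and 0.51 with an unadjusted p under 0.05, and Ddit4, another inhibitor of mTORC1, had -0.80. For Ddit4, every cmGch1 KO library (30.6 to 55.9 cpm) lay within the WT range of 27.6 to 152 cpm (adjusted p = 0.345, edgeR). The highest WT value was that of replicate 6.

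Markers of cell types were set beside these values, and 1 of the tested markers, Acta2, was called by edgeR. The 8 cardiomyocyte markers summed to 62403 to 66048 cpm in WT and 56311 to 60317 in cmGch1 KO, without overlap. Of the 8, 7 were negative, with a median log2 fold change of -0.17. By edgeR or DESeq2 0 were called, and 0 had an unadjusted p under 0.05 with edgeR. Taken singly, 0 of the 8 separated the groups. The sum was weighted to abundant markers, as Myh6 alone had means of 23053.5 cpm in WT and 20302.3 in cmGch1 KO. All 6 macrophage markers were positive, with a median of 0.31 and 5 of 6 at an unadjusted p under 0.05 (7.01% of all tested genes were higher at it), but 0 were called by edgeR (lowest adjusted p 0.193) or DESeq2. Their sums overlapped, at 193 to 333 cpm in WT and 264 to 395 in cmGch1 KO. The 6 fibroblast markers were positive with a median of 0.11 and sums of 594 to 800 and 653 to 806 cpm. Endothelial markers had a median of 0.04 with sums of 695 to 873 and 766 to 902 cpm. Smooth muscle and pericyte markers had a median of -0.13 with sums of 851 to 956 and 870 to 1007 cpm, although Acta2 among them rose by 0.66 on the log2 scale (adjusted p = 0.00672, edgeR). Atrial markers summed to 7.62 to 284 cpm in WT and 45.1 to 187 in cmGch1 KO, and Bmp10, an atrial ligand, was at 0 in 8 of 12 libraries. The part of these cell types in the synthetase values was not tested.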

How the data were processed

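RNA was measured in 6 WT and 6 cmGch1 KO left ventricles. The authors extracted total RNA, made stranded paired-end libraries with dUTP and deposited raw read counts per Ensembl gene made with HISAT2, Picard and featureCounts; the submitters' processing notes name HISAT2, SAMtools and GRCm38. The annotation and the strand setting are not given in the sources used here. A second table deposited by the authors holds normalised values on a log2-like scale and served only as an alternative.

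Symbols, coordinates and exon lengths came from GENCODE M21, in which 26582 of the 26921 gene identifiers were found. The counts were analysed with edgeR 4.0.16 in R 4.3.3 (TMM normalisation, cpm over 3 in at least 6 libraries, quasi-likelihood F-test on genotype without covariates). P-values were adjusted by the Benjamini-Hochberg method over all 11225 tested genes, with an FDR threshold of 0.05. The cpm minimum and FDR threshold follow the study, and the choice of 6 libraries was made here. TPM was computed here from the counts and the joined length of all annotated exons, scaled to each library's own total without TMM. Permutation tests were exact over 924 splits and two-sided. The fit was tested on simulated data. Alternatives, chosen from normalisation, filters, tests, covariates and left-out libraries, used DESeq2 1.42.0, limma 3.58.1 and sva 3.50.0.

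Same-genotype libraries differed by a chi-square per degree of freedom of 16.3 to 110, so none was a copy of another. Replicate numbers had no stated meaning, so they were not used to pair samples in the main fit. Deviations of same-numbered libraries from their group means correlated at -0.15 to 0.70 over the 6 pairs. Pairs 1, 5 and 6 had 0.70, 0.44 and 0.55, against means of -0.19, -0.06 and -0.07 with other numbers. Pairs 2, 3 and 4 had -0.11, -0.08 and -0.15. A fit with the number as a block is given below.

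Every member was named. Values by library are given for members with an FDR or unadjusted p under 0.05, without overlap between groups, or highest or lowest of their list per length; Fars2 and Lars2 were added after their values were seen. In the pathway lists, genes past either threshold were named, with a few named whatever their values. The members and lists were chosen with earlier results of these data known, and the ATF4 targets were taken from general knowledge. Lists are described by counts and medians, with no test. Gcn1 could not be matched, and 8 of the 36 ATF4 targets, 2 proofreading genes, 1 mitochondrial tRNA gene and Bmp10 did not pass the filter. 1 promoter window is not reported here.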

Additional observations from a re-analysis of the deposited data

Results flagged for a closer look

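In groups of 6 libraries, a member was singled out when its highest or lowest library stood farther from the next than Dixon's critical value allows. This held for 4 of the 72 groups examined, and chance gives about 1 in 20. Tars, for threonine, was 30.2 cpm in WT replicate 6, and the next WT library had 28.3. Aars2, for alanine in mitochondria, was 19.1 cpm in cmGch1 KO replicate 1, and the next lowest cmGch1 KO library had 26.3. Fars2, for phenylalanine in mitochondria, was 64.7 cpm in cmGch1 KO replicate 1 against 48.4 in the next. Lars2, for leucine in mitochondria, was 1006 cpm in WT replicate 1 against 601 in the next. Both cmGch1 KO values came from replicate 1, the library whose mean cytosolic level also lay within the WT range.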

How the results depend on the processing

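Across 25 alternative settings the median log2 fold change of the cytosolic list stayed between 0.10 and 0.20, that of the mitochondrial list between -0.12 and -0.03 and their difference between 0.17 and 0.25; no median changed sign. The cytosolic median of 0.20 arose with scaling by library size alone, which moved the median of all genes to 0.07, the calls from 76 higher and 50 lower to 116 higher and 36 lower, the cytosolic members with a positive value to 20 of 20 and the mitochondrial members with a negative value from 12 to 9 of 16, with a mitochondrial median of -0.03 and 1 mitochondrial member higher at an unadjusted p under 0.05. The number of genes called was 126, and it was 373 with DESeq2, 65 with sex-linked expression as a covariate, 636 with 1 surrogate variable, 34 without both cmGch1 KO libraries with high Xist and 42 without the 4 libraries with high Lars2 (chosen after seeing the data, by the level of that gene). Leaving out 1 library gave 72 (without WT replicate 3) to 207 (without cmGch1 KO replicate 1). The number of members called was 0, but 1 with DESeq2 (Gars) and 2 with the surrogate variable (Gars, adjusted p = 0.0318, and Fars2, adjusted p = 0.0399). The cause was not tested. With the replicate number as a block, 188 genes and 0 members were called; only 3 of the 6 same-numbered pairs deviated together (r over 0.1), and the labels do not say what a number stands for. Without a filter, 2 cytosolic members had an unadjusted p under 0.05, and leaving out single libraries gave 2 to 10.

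Several members changed sign, most of them near 0; Vars2 (-0.14) and Lars2 (0.15) were not. Scaling by library size alone gave 0.0726 for Kars, 0.0592 for Farsa, 0.0785 for Pars2, 0.0169 for Sars2 and 0.0108 for Tars2. The sex-linked covariate gave 0.00397 for Kars, -0.0180 for Ears2 and -0.11 for Lars2. Without both high-Xist libraries Ears2 was -0.0209 and Lars2 -0.15. Without the 4 high-Lars2 libraries Kars was 0.00568, Farsa 0.0124, Ears2 -0.00203, Lars2 -0.47, Nars2 -0.0884 and Vars2 0.0117. Vars was -0.00577 without a filter and -0.00313 from the deposited normalised values, and Pars2 was 0.00013 with mitochondrially encoded genes left out. Leaving out 1 library gave ranges of -0.0102 to 0.0602 for Dars, -0.0172 to 0.12 for Eprs, -0.0247 to 0.0196 for Kars, -0.0189 to 0.0449 for Vars, -0.0396 to 0.000393 for Farsa, -0.0148 to 0.35 for Lars2, -0.0145 to 0.0868 for Nars2 and -0.0777 to 0.0658 for Pars2. At 19921398 counts or more, depth left the lowest member with 113 counts.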
